A study of Mus musculus with 2 samples.

Results

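The genes described here encode the coats, adaptors, small GTPases and sorting complexes that move membrane cargo between the cell surface, endosomes, lysosomes and the Golgi. They were taken by symbol from the probe sets that name 1 gene. The symbols were those of the Rab, Snx and Vps families, the subunits of the AP-1, AP-2 and AP-3 adaptor complexes, and 12 listed genes of the clathrin coat, its accessory proteins and the transferrin receptor. The rule found 134 of the 12393 genes on the arrays. Of the 12 listed genes, Picalm and Synj1 had no probe set naming them alone here. For a gene with several probe sets, the probe set with the highest mean of both arrays gave the value. No measured difference entered the rule, though it was set with earlier results of these data known.

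The study profiled E14tg2a, a mouse embryonic stem cell line, after stable transfection. The first group was clone 4 of cells carrying the plasmid shDAB2-285, which encodes a short hairpin RNA against Dab2. The second group was clone 9 of cells carrying the control vector. Both grew under normal conditions in GMEM with 10% fetal bovine serum, L-glutamine, antibiotics and 1000 U/ml of LIF, the cytokine that keeps these cells undifferentiated. Each group is 1 clone on 1 Affymetrix mouse 430A array. No spread between cultures or clones can be estimated, no test across samples was possible, and hairpin, clone and culture cannot be told apart. Because RNA came from whole cultures, fewer cells of a type and less RNA per cell cannot be told apart either.

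In clathrin-mediated endocytosis, adaptors such as AP-2 and Dab2 bind cargo receptors and recruit clathrin, whose heavy and light chains form the coat of the budding vesicle. Dynamin cuts the vesicle free, and Rab GTPases then mark each compartment and recruit the proteins that tether and fuse membranes. From early endosomes, cargo returns to the surface through recycling endosomes, goes back to the Golgi with retromer and sorting nexins, or moves on to lysosomes with the ESCRT and HOPS complexes.

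Dab2, the hairpin's target, read 6.33 in the shDAB2 and 6.64 in the vector clone, lower by a log2 difference of -0.31 on its brightest probe set. On that probe set the vector value was just above the floor that is defined in the next paragraph, and the shDAB2 value was below it. Dab2 thus passed the floor in the vector clone only. Its other probe sets differed by -0.05 and -0.01 and were below the floor in both clones. How far the hairpin lowered Dab2 cannot be judged from values this dim. The labelled cell type had its markers: all 8 listed stem cell genes were above the floor, with a median difference of 0.07. All 6 primitive endoderm markers were below the floor, and their mean log2 value was 6.36 on both arrays. Of 7 fibroblast markers 1 was above it, with a mean over the list of 6.43 in the shDAB2 and 6.45 in the vector clone. The trophectoderm list had 3 of 6 genes above the floor, all of them keratin genes lower in the shDAB2 clone, while its regulators Cdx2, Eomes and Elf5 were below it. The mean of that list was 7.71 in the shDAB2 and 8.16 in the vector clone, and its part in the values that follow was not tested.

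Values are log2 expression values, and a difference is always shDAB2 minus vector. The floor was set at 6.62, the median over all probe sets of both arrays, and a gene passed it if either clone's value did. Of the 134 members 108 were above the floor, as were 7269 of all 12393 genes. The filter let 6 members through on 1 array only, with differences from -0.13 to 0.08. The 26 members below the floor differed by -0.15 to 0.17, too dim to be compared. They were Ap1s2 and Ap3m2 of the adaptors, the sorting nexin genes Snx22 and Snx29, Vps13c and Vps25, the Rab-binding protein genes Rab11fip5, Rab3gap2 and Rab3il1, the opposite-strand transcript Rab26os, and 16 Rab GTPases of different compartments: Rab2b, Rab3c, Rab5b, Rab6b, Rab7b, Rab17, Rab20, Rab27a, Rab27b, Rab30, Rab32, Rab33a, Rab33b, Rab37, Rab38 and Rab40b.

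Differences among the trafficking genes were small. At a limit of 0.32 on the log2 scale, 3 of the 108 members were higher in the shDAB2 clone, or 2.78%, where 4.91% of all genes above the floor were. At the same limit 2 members were lower, or 1.85%, where 6.07% of all genes were. No member reached 1.5-fold in either direction; of all genes 0.578% did so as higher and 1.62% as lower. At 2-fold the shares of all genes were 0.0275% and 0.179%. The SD of the differences was 0.15 over the 108 members and 0.22 over the 7269 genes. The median was -0.03 over the members and 0.00 over all genes. By sign, 65 of the 108 members were lower, 42 higher and 1 equal, so 60.2% were lower against 49.3% of all genes above the floor. Over all 134 members without the floor, 56.0% were lower, against 45.9% of all genes. These are descriptions of 2 arrays, and the members were not tested as a set.

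**Figure D1:**
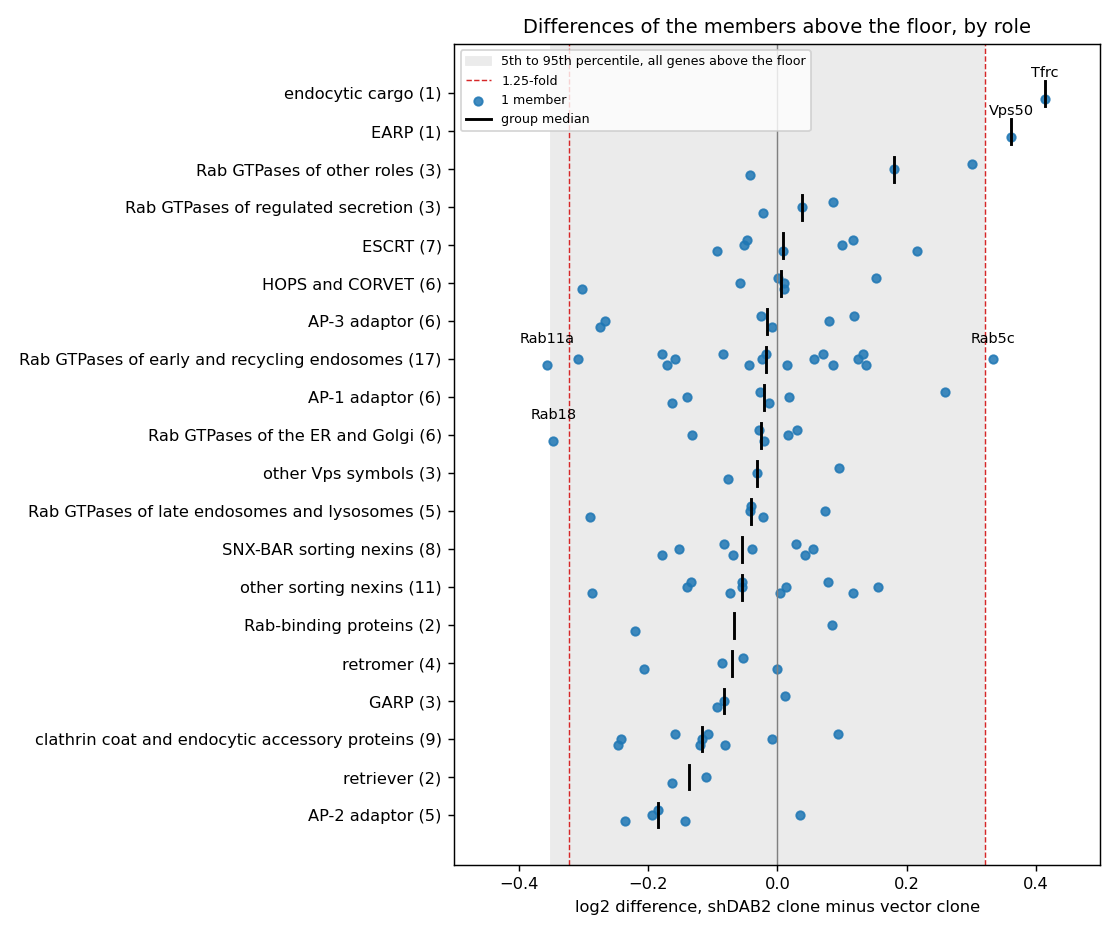
Log2 difference between the shDAB2 and the vector clone for each of the 108 members above the floor (points), grouped by role with the number of members in brackets; black bars are group medians. The grey band runs from the 5th percentile (-0.35) to the 95th (0.32) of all genes above the floor, and dashed red lines mark a difference of 0.32 in size; Tfrc, Vps50 and Rab5c lie past the right line and Rab11a and Rab18 past the left one.

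The member with the greatest positive difference was Tfrc, which encodes the transferrin receptor, the cargo that brings iron into the cell through clathrin-coated pits. Tfrc read 9.67 in the shDAB2 and 9.26 in the vector clone, a difference of 0.41 or 1.33-fold. Its other probe sets read 7.81 against 7.57 and 7.30 against 6.999, differences of 0.23 and 0.30. The direction was thus the same on all 3 probe sets, though only the brightest passed 0.32. Vps50 followed at 8.07 in the shDAB2 and 7.71 in the vector clone, a difference of 0.36 or 1.29-fold. Its product is the subunit that sets EARP, a tethering complex of recycling endosomes, apart from GARP at the Golgi. Rab5c, a GTPase of early endosomes, read 7.05 and 6.71, a difference of 0.33 or 1.26-fold. Vps50 and Rab5c each rest on 1 probe set.

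On the other side stood Rab11a, the main GTPase of recycling endosomes, at 7.79 in the shDAB2 and 8.15 in the vector clone. That is a difference of -0.36, or 1.28-fold lower. The second Rab11a probe set read 6.99 and 6.97, a difference of 0.02, so the direction was not repeated. Rab18, a GTPase of the ER and lipid droplets, read 8.36 and 8.71 on its brightest probe set, a difference of -0.35 or 1.27-fold lower. On its second probe set the difference was -0.10. Just short of the limit came Rab14, which acts between the Golgi and endosomes, at -0.31 (-0.346 and past the limit under cyclic loess). All 4 of its probe sets above the floor were lower, from -0.31 to -0.08.

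The promoters of the 3 members with the greatest absolute difference are printed so that the sequence at their starts can be read beside these values. Each runs from 250 bases before to 50 bases after the outermost RefSeq start of the gene (build GRCm38.p6), 300 bases from 5′ to 3′ on the gene's strand. Capitals mark 3 motifs found on either strand: CACGTG, the E-box bound by Myc and by TFEB, the regulator of lysosomal genes; CCAAT, the box bound by NF-Y; and GGGCGG, the GC box bound by Sp1. These motifs do not overlap one another in the windows shown.
Tfrc promoter, chr16:32608646-32608945, plus strand: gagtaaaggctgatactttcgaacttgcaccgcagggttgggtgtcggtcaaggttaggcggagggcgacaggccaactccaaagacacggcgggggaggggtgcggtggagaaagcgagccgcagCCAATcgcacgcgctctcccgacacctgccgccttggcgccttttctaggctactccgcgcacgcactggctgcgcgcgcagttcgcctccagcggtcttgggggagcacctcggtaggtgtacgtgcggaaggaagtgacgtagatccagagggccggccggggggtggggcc
Vps50 promoter, chr6:3498143-3498442, plus strand: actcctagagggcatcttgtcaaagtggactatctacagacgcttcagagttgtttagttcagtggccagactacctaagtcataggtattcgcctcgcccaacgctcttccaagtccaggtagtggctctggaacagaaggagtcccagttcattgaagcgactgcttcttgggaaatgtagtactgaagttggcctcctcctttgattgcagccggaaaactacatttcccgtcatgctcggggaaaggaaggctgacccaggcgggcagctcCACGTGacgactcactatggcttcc
Rab11a promoter, chr9:64737707-64738006, minus strand: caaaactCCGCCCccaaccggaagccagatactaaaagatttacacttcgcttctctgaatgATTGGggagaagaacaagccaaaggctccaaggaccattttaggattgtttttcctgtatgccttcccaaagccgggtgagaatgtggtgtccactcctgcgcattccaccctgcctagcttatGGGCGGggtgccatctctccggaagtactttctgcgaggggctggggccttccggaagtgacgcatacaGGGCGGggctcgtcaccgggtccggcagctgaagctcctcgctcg

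The Tfrc promoter held 1 CCAAT box and 30 CpG pairs, with neither of the other motifs. In Vps50 the window held 1 E-box and 11 CpG pairs. The Rab11a window held 3 GC boxes and 1 CCAAT box with 16 CpG pairs. A RefSeq promoter was at hand for 88 of the 108 members above the floor and for 5927 of all genes above it. The E-box stood in 12.5% of the member promoters and in 11.1% of those of all genes above the floor. For CCAAT the shares were 39.8% and 39.1%, and for the GC box 71.6% and 68.7%. Over all 27025 promoters in the table the shares were 7.24%, 38.0% and 35.9%. The member windows held a median of 23 CpG pairs and those of all genes above the floor 22. By these letters the promoters of trafficking genes were close to those of other genes above the floor. A match is a description of the sequence only.

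Genes of the clathrin coat and its accessory proteins were lower in 8 of 9 cases, with a median of -0.12 and a range from -0.25 to 0.09. Cltc, the clathrin heavy chain, read 9.50 in the shDAB2 and 9.75 in the vector clone, a difference of -0.25 or 1.19-fold lower, on a single probe set. The light chains, which regulate coat assembly, went apart on their brightest probe sets only. Clta read 9.45 and 9.57, a difference of -0.12, but its second probe set gave 0.08. Cltb read 7.25 and 7.15, a difference of 0.09, and its second probe set gave 0.17.

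Probe sets of the accessory proteins lay apart to differing degrees. Hip1, which links clathrin to actin and to membrane lipids, read 6.89 in the shDAB2 and 7.14 in the vector clone. Its 3 probe sets differed by -0.24, -0.27 and -0.18. The epsin genes, whose products bend membrane and bind ubiquitinated cargo, were lower, Epn1 by -0.16 and Epn2 by -0.08 with -0.15 on its second probe set. Eps15, a scaffold of the coated pit, differed by -0.11 and -0.24 on its probe sets. Itsn1, a scaffold that joins coat and dynamin, differed by -0.12 and -0.19. Dnm2, the dynamin that cuts coated vesicles free, read 7.93 and 7.94. Of the 6 Dnm2 probe sets above the floor 5 lay between -0.07 and -0.01, and 1 stood apart at -0.36.

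AP-2, the adaptor of the cell surface, had a median of -0.18, with 4 of 5 subunit genes lower. Ap2a2, an alpha subunit, read 7.73 in the shDAB2 and 7.97 in the vector clone, with -0.24, -0.25 and -0.17 on its 3 probe sets above the floor. The cargo-binding mu subunit gene Ap2m1 read 9.02 and 9.21, a difference of -0.19. Ap2a1, the other alpha subunit, read 6.76 and 6.94, also lower by a similar amount (-0.18). Ap2b1, the beta subunit that binds clathrin, differed by -0.14, and by -0.06 on its second probe set. Ap2s1, the small subunit, was the exception at 8.11 and 8.07, a difference of 0.03. For scale, the difference of 1 probe set had an SD of 0.11, from the brightest and second probe sets of 2502 genes. This covers probe noise and transcript variants, not the spread between cultures. Coat, accessory and AP-2 genes together were lower in 12 of 14 cases, where 49.3% of all genes above the floor were lower. Their median was -0.13, and none reached the limit of 0.32. Among the 12, Dnm2 differed by only -0.01 on its brightest probe set, and Clta was higher by 0.08 on its second. The groups joined here each had a low median, and Tfrc, higher by 0.41, is not counted.

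**Figure D2:**
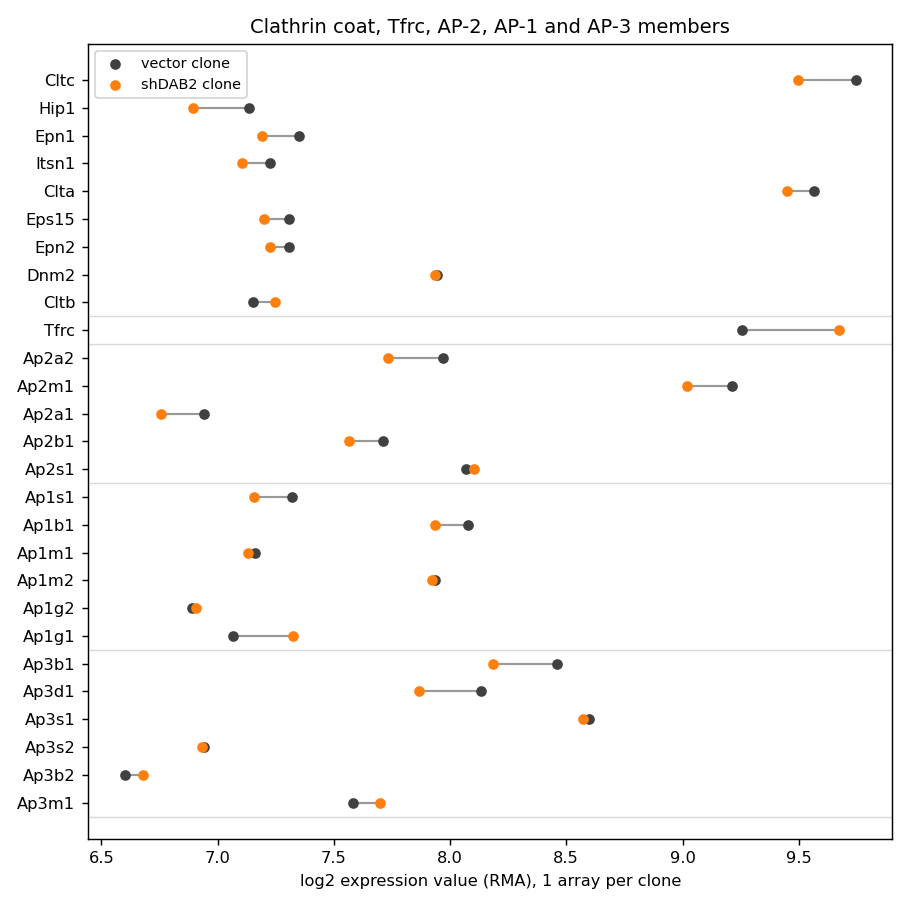
Log2 expression values of the clathrin coat and accessory genes, Tfrc and the AP-2, AP-1 and AP-3 subunits above the floor, with 1 array per clone (grey, vector; orange, shDAB2); the line between the points is the difference. Orange lies to the left of grey for 8 of 9 coat genes and 4 of 5 AP-2 genes, and to the right for Tfrc; positions of different genes are not comparable, since each probe set has its own response.

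AP-1 and AP-3, the adaptors of the Golgi and of endosomes, showed no common direction. In AP-1 4 of 6 genes were lower, with a median of -0.02. Its gamma subunit gene Ap1g1 read 7.32 in the shDAB2 and 7.07 in the vector clone, a difference of 0.26, with 0.25 on its second probe set. Its paralogue Ap1g2 differed by 0.02. Ap1s1, a small subunit, and Ap1b1, the beta subunit, were lower by -0.16 and -0.14. The mu subunits went neither way: Ap1m1 differed by -0.03, and Ap1m2, the form typical of epithelial cells, by -0.01. In AP-3, the adaptor for lysosomal membrane proteins, 4 of 6 genes were lower and the median was also -0.02. The large subunit genes Ap3b1 and Ap3d1 stood apart. Ap3b1 read 8.19 and 8.46, with -0.27 and -0.28 on its probe sets. Ap3d1 read 7.87 and 8.13, a difference of -0.27. The medium subunit gene Ap3m1 was higher on all 3 probe sets above the floor, by 0.01 to 0.14, and the small subunits Ap3s1 and Ap3s2 differed by -0.03 and -0.01. Subunits of 1 complex thus differed in opposite directions.

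Rab GTPases made up 50 of the 134 members, and 34 were above the floor, 15 higher and 19 lower, with a median of -0.02. Those of early and recycling endosomes, 17 genes, split into 8 higher and 9 lower. Next to Rab5c at 0.33, Rab5a, which drives early endosome fusion, differed by only -0.02 (8.69 and 8.71). Rab5b was below the floor. The Rab11 relatives were the farthest apart of the 16 paralogue sets compared: Rab11a at -0.36, Rab11b at -0.04, and Rab25, the form of epithelial cells, at 0.14 (7.60 and 7.46). The gap of 0.49 between Rab11a and Rab25 rests on the brightest Rab11a probe set. Of the fast recycling pair, Rab4b differed by -0.16 and Rab4a by 0.02. Rab21, which carries integrins, was higher by 0.12, while Rab31, between Golgi and endosomes, was lower by -0.18 and, on its second probe set, by -0.06. Rab15 stood at -0.17, and the exocytic GTPases Rab8a, Rab8b and Rab13 at 0.09, 0.13 and 0.07. Rab10 differed by -0.02, Rab12 by -0.08 and Rab22a by 0.06.

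Among Rab GTPases of late endosomes and lysosomes, 4 of 5 above the floor were lower, but only Rab24, linked to autophagy, by more than 0.1. Rab24 read 7.15 in the shDAB2 and 7.44 in the vector clone, a difference of -0.29, against -0.06 on its second probe set. Rab7, the organiser of late endosomes, read 8.70 and 8.75, with differences of -0.04 and -0.01. Rab9, which serves the path from late endosomes to the Golgi, differed by -0.02, Rab34 by -0.04 and Rab29 by 0.07. In the ER and Golgi group Rab18 was lowest, at -0.35 on its brightest probe set but -0.10 on its second. Rab1a and Rab1b, of transport from the ER to the Golgi, differed by -0.02 and 0.02. Rab6a, of transport within the Golgi, differed by 0.03. Rab2a was lower on all 3 probe sets above the floor, by -0.17 to -0.11. The secretory GTPases Rab3a, Rab3b and Rab3d lay within 0.1 of no difference, and Rab27a, Rab27b, Rab3c and Rab37 were below the floor. Rab23, known as a negative regulator of hedgehog signalling, was higher, at 7.36 against 7.06 and by 0.30 and 0.17 on its probe sets. Rab40c differed by 0.18 and 0.02 on its probe sets. Of the Rab-binding proteins that share the prefix, Rab3ip, which activates Rab8, read 7.49 and 7.71, a difference of -0.22.

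Sorting nexins, which bind endosomal phosphoinositides, were 19 genes above the floor with 11 lower, 8 higher and a median of -0.05. The 8 members with a membrane-bending BAR domain ran from -0.18 to 0.05. Snx2 differed by -0.18 and its partner Snx1 by 0.05. Snx6 was uneven: its probe sets above the floor gave 0.04, -0.31 and 0.14. Snx5 gave 0.03 on the brightest and -0.11, -0.17 and -0.01 on the others. Among the other sorting nexins Snx17, which returns integrins and LDL receptor relatives to the surface, was lowest, at 8.56 in the shDAB2 and 8.85 in the vector clone, a difference of -0.29 on 1 probe set. Snx3, a cofactor of retromer, differed by -0.14. Snx10 and Snx11 were higher by 0.16 and 0.12. Snx21 differed by -0.13, having passed the floor in the vector clone only. The remaining 6 of this group, Snx12, Snx14, Snx15, Snx16, Snx19 and Snx20, lay within 0.1 of no difference on their brightest probe sets.

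Retromer, the coat that retrieves receptors from endosomes, had 3 of 4 genes lower and 1 equal, with a median of -0.07. Vps35, its scaffold, read 9.07 in the shDAB2 and 9.28 in the vector clone, with differences of -0.21 and -0.12. The other subunits Vps26a, Vps29 and Vps26b differed by -0.09, -0.05 and 0.00, and Vps26b by -0.14 on its second probe set. The 2 members of retriever, the related complex that works with Snx17, were also lower, Vps26c by -0.16 and Vps35l by -0.11. In the HOPS and CORVET tethers of the lysosomal path, with Vps33b of a related tether counted, 4 of 6 genes lay above 0. The median was 0.01. There Vps16, a core subunit, stood apart at 7.64 and 7.94, a difference of -0.30 on 1 probe set. Vps33b, a relative of the HOPS subunit Vps33a that acts in a related tether, was at 0.15. On their brightest probe sets Vps11, Vps18, Vps39 and Vps41 lay within 0.1 of no difference. The other Vps41 probe sets gave 0.10 and -0.19. In the ESCRT machinery, which sorts ubiquitinated cargo into multivesicular bodies, 4 of 7 genes were higher and the median was 0.01. Vps36 led it at 7.56 and 7.35, a difference of 0.22. The ATPase genes Vps4a and Vps4b, whose products take ESCRT filaments apart, were higher by 0.10 and 0.12. Vps28 and the Vps37 genes, of the ESCRT-I complex that binds ubiquitin, ran from -0.09 to 0.01. The GARP genes Vps52, Vps53 and Vps54 differed by -0.08, 0.01 and -0.09, far from the 0.36 of Vps50, with which Vps52 and Vps53 products share a complex. Vps45, which controls SNARE fusion at endosomes, differed by -0.08. Vps72, a chromatin protein despite its symbol, differed by -0.03.

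Repeat measurements by other probe sets show how far single values reach. A second probe set above the floor existed for 44 members, and its difference had the same sign as that of the brightest in 30. Where the brightest differed by at least 0.2 in size, the sign was the same in 10 of 11, with Rab11a the exception. Where it differed by less, the sign was the same in 20 of 33. The SD of 1 probe set was 0.09 over these 44 members. The Pearson correlation of the paired differences was 0.61 across the 44 members, against 0.78 across 2502 genes; genes are not independent replicates. The other genes with opposite signs were Clta, Rab10, Rab1a, Rab22a, Snx5, Snx6, Snx12, Vps11, Vps18, Vps29, Vps39 and Vps53, with Vps26b at 0.00 on its first, each at most 0.12 in size on its brightest probe set. At the negative end, Rab18, Rab14 and Rab24 were nearer to 0 on the second probe set than on the brightest, whereas Ap3b1, Ap2a2 and Hip1 were within 0.03 of their first value.

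**Figure D3:**
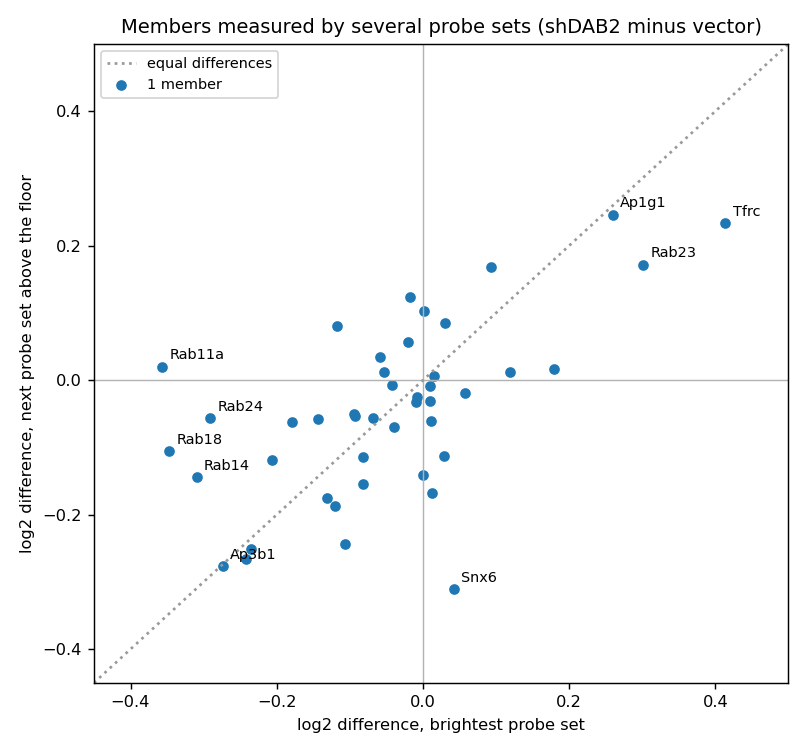
Log2 difference (shDAB2 minus vector) on the next probe set above the floor against that on the brightest, for the 44 members that have both; the dotted line marks equal differences. Tfrc, Ap1g1 and Rab23 are positive on both axes and Ap3b1 negative on both, while Rab11a lies at -0.36 on one axis and 0.02 on the other.

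Differences also varied with signal. Among the 10 members with a mean log2 value of at least 9, 7 were lower and the median was -0.12, where the median of all 693 genes in that band was 0.04. In the band from 8 to 9, 12 of 16 members were lower, with a median of -0.05 against 0.02 for 1255 genes. The share of all genes that were lower was not computed by band, and over all genes above the floor it was 49.3%. Among the lower members at 9 or more were Clta, Cltc and Ap2m1, already described with the coat and AP-2. Clta and Rab1a in that band were higher on their second probe sets, by 0.08 and 0.06. Below 7.5, the medians of members and of all genes were within 0.02 of 0. As a description, the Spearman correlation of difference with mean signal was -0.23 across the 108 members and 0.05 across all genes above the floor. With the length of genome the gene spans it was -0.13 and -0.14. Member spans had a median of 27589 bases, and those of all genes above the floor 21007. Genes on 1 array share its normalization, and no p-value is given.

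**Figure D4:**
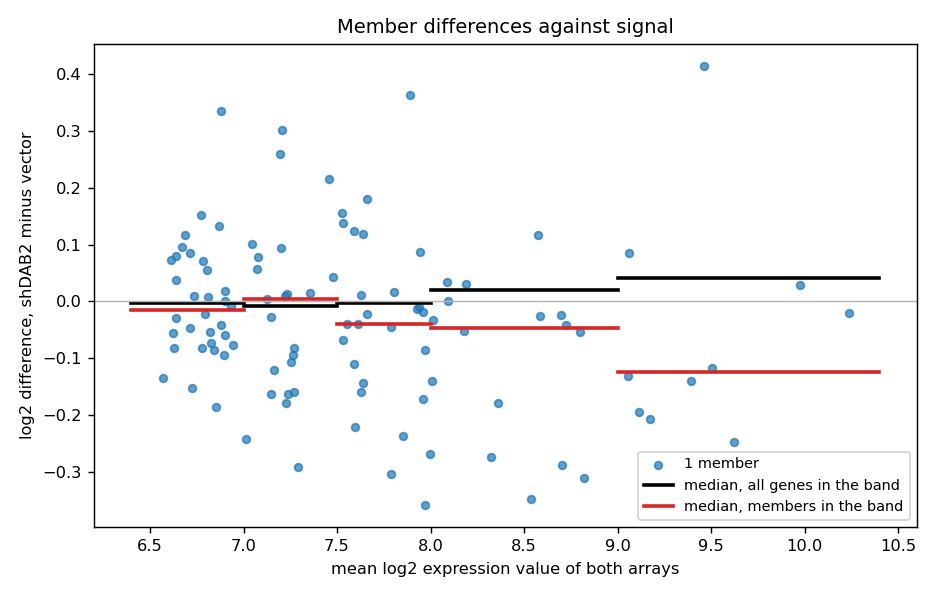
Log2 difference (shDAB2 minus vector) against the mean log2 expression value of both arrays for the 108 members above the floor (points), with the median of members (red) and of all genes (black) in 5 bands of signal. From a mean of 9 upwards the red line lies at -0.12 and the black one at 0.04, and Tfrc is the point at 0.41.

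Other genes of the same routes were listed by function, with earlier results of these data known. The list held 93 genes, of which 79 were named on the arrays and 71 were above the floor. Of these 44 were lower, or 62.0% against 49.3% of all genes above the floor, and 27 higher, with a median of -0.02. No gene of the list was higher by 0.32 or more and 5 were lower by as much, where 4.91% and 6.07% of all genes were. Lowest was Ehd1, an ATPase that drives exit from recycling endosomes. It read 8.39 in the shDAB2 and 9.12 in the vector clone, a difference of -0.72 or 1.65-fold lower. Its 3 other probe sets were lower as well, by -0.54, -0.40 and -0.34. Ehd1 was thus farther from 0 than any of the 108 members above the floor. Igf2r, the receptor that carries lysosomal enzymes and is returned by retromer, read 7.08 and 7.54, a difference of -0.46, with -0.28 on its second probe set. Cttn, which binds actin and dynamin at sites of endocytosis, differed by -0.39. Pdcd6ip, an ESCRT-associated protein, was next at -0.35, but at -0.11 and -0.22 on its other probe sets above the floor. Chmp2a, an ESCRT filament subunit, was also lower by -0.35, on 1 probe set.

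All 5 sorting receptors above the floor were lower, with a median of -0.15; M6pr, the smaller mannose 6-phosphate receptor, differed by only -0.01. Endocytic accessory proteins outside the rule were lower in 15 of 19 cases, with a median of -0.06. Dab2 itself is counted there; without it 14 of 18 were lower, with a median of -0.05, and 43 of 70 genes of the whole list. Endosomal SNARE genes were lower in 7 of 10, with a median of -0.10. Stx6, counted as lower at -0.11, was higher by 0.14 on its second probe set. For these counts, the share of all genes above the floor that were lower was 49.3%. The Arf GTPases and their adaptors had 7 of 10 genes above 0 and a median of 0.05. Of these, Ap4b1 and Ap4m1 were higher but passed the floor in the shDAB2 clone only. Elsewhere in the list Vamp7 passed it in that clone only, and Dab2, Arrb1 and Ehd3 in the vector clone only. The sign of such a gene depends in part on the filter. Highest in the list were Ehd4, a relative of Ehd1, at 0.24, and Vti1b, a SNARE of late endosomes, at 0.23. Rabep1, an effector of Rab5, was at 0.23 but 0.09 on its second probe set. Eps15l1, a relative of Eps15, was at 0.20, and at -0.09 on its second probe set.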

How the data were processed

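RNA of 2 stably transfected clones was measured on 1 Affymetrix array each, grouped by sample title. The authors deposited log2 values, 1 for each probe set on each array. RMA, named in the submitters' processing notes, corrects background, equalises the distributions and combines the probes. Its version is not given in the sources used here, and log2 was inferred from the range of values (5.65 to 12.86). RMA compresses differences of dim probe sets.

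Probe sets were named from GEO's platform annotation. Of 22626, 20380 named 1 gene and were used, 691 named several and 1555 were unnamed here. Members and lists were chosen with earlier results of these data known, and every member could be named. With 1 array per group, sizes are described (log2 limits of 0.32 and 0.58) and no p-value is given. Precision is limited by the number of arrays. Scripts were tested on simulated data. The settings also tried were median centring, cyclic loess (R 4.3.3, limma 3.58.1), the mean of all probe sets, removal of probe sets that carry a letter before the ending _at (_s, _x or _a), other floors, another fold limit and a stricter member list. Other steps used Python 3.11.15 and pandas 2.3.3. Promoters came from RefSeq (GRCm38.p6). Proteins were not used here.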

Additional observations from a re-analysis of the deposited data

How the results depend on the processing

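The number of members past 0.32 was 5 as reported and 6 under cyclic loess, where Rab14 joined the same genes at -0.346. At a limit of 2-fold it was 0, as no member reached 1.5-fold. With the mean of all probe sets it was 2 of 102 members (Rab5c and Vps50), and Tfrc fell just short at 0.317. It was 2 of 89 members without the _a, _s and _x probe sets (Rab5c and Tfrc), where Vps50 had no probe set left. The difference of Rab11a turned to 0.0201 without those probe sets, which leaves only its second one, and that of Rab18 was -0.1049. No member reached 1.5-fold under any of the 6 alternatives run on that count. The member median ran from -0.0434 (cyclic loess) to -0.0213 (no floor). Raising the floor to the upper quartile, which leaves fewer genes, moved the AP-3 median to -0.1462 and the ESCRT median to 0.117. Medians of the 16 member groups with at least 3 genes had 85 values under the alternatives that left as many genes. The other 83 stayed within 0.11, the SD of 1 probe set, of the reported value. Most of these medians are smaller in size than 0.11, so a median could lose or change its sign and still be counted. Without the _a, _s and _x probe sets the retromer median went from -0.0699 to 0. That of the early and recycling Rab GTPases went from -0.0183 to 0.0386. Medians of the classes outside the rule were not rerun. Under cyclic loess all 108 member differences stayed within 0.11 of their reported values. Median centring shifts every difference by the same small amount, so its count of 108 was fixed in advance. With the mean of all probe sets 101 member differences stayed within 0.11 and 7 moved farther. Without the _a, _s and _x probe sets 88 stayed and 3 moved, while Rab11a reversed its sign. Values near 0 have no settled sign. No paired analysis was possible because each group holds 1 sample. No replicate could be left out for the same reason.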
